A study of Mus musculus with 9 samples.

Results

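The 10 genes described here were those for sterol export (Abca1, Abcg1, Abcg5, Abcg8), for the making of cholesteryl esters (Soat1, Soat2), for the liver X receptors, LXR (Nr1h2, Nr1h3), and for 2 further products of LXR target genes (Mylip, Lpcat3). They were chosen by name from the 17846 genes in the files, and all 10 passed the filter on low counts. RNA-seq was performed on liver tissue of 9 male C57/BL mice (C57BL/6 in the study's methods) of wild-type genotype, with 3 mice in each of 3 groups and 1 library per mouse. Control mice ate normal chow and were sedentary. NASH mice were sedentary and ate the atherosclerotic (Ath) diet, which contains cholesterol and cholate, for 20 weeks in all. NASH+Exercise mice ate the same diet and, after 12 weeks of it, were trained on a treadmill for 8 weeks. By the study's own account, the 8 weeks of training or of sedentary keeping began when the mice were 20 weeks old. Because the Ath diet itself supplies sterol and bile acid, the effect of the fed sterol and that of the liver disease cannot be told apart in these groups.

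LXR are nuclear receptors that bind oxysterols and pair with retinoid X receptors on DNA. When sterol accumulates in a cell, they raise transporters that export it and lower its uptake through the ubiquitin ligase Mylip, which degrades the LDL receptor. In the liver, Abcg5 and Abcg8 form one transporter that moves sterol into bile, and Abca1 passes cholesterol and phospholipid to apolipoprotein A1 to start HDL. Abcg1 exports sterol to mature HDL and is best known from macrophages. Soat1 and Soat2 store sterol as esters, Soat2 being the enzyme of hepatocytes, and Lpcat3 places polyunsaturated fatty acids in phospholipids.

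Abcg5 and Abcg8 lie head to head on chromosome 17 and run in opposite directions. In RefSeq on GRCm38.p6, Abcg5 (gene ID 27409) occupies chr17:84658174-84683011 on the minus strand and Abcg8 (67470) chr17:84676302-84700333 on the plus strand. The start site of Abcg5, 84683011, and that of 1 Abcg8 transcript, 84683121, are separated by 109 bases, shown here because this stretch is upstream of both starts and both genes were raised in the mice on the Ath diet. A longer Abcg8 transcript starts at 84676302, so that the gene spans overlap by 6710 bases and the stretch, which holds no exon in GENCODE M21, lies in an intron of that transcript. It is read on the plus strand of chr17:84683012-84683120, and capitals mark AGATAA (a form of the GATA motif) as it appears from the opposite strand.
Between Abcg5 and Abcg8: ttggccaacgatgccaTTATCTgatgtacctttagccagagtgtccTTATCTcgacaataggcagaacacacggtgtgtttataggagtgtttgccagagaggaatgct
The stretch had a GC content of 45.9%. The motif AGATAA was chosen after the stretch had been read, and 11.2% of 32851 RefSeq promoters (250 bases before to 50 after the start) held it on either strand.

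RefSeq promoters were found for 8 of the 10 genes, and those of Abcg1 and Soat2 were not used here. The half-site bound by LXR and its relatives was searched on both strands as the exact letters AGGTCA. It was searched alone and as a direct repeat with 4 bases between the copies, the spacing that LXR binds, or with 1 base. None of the 8 promoters held it in any of these forms, and 16.3%, 0.0152% and 0.0396% of all promoters did. Inexact copies were not searched, and the exact repeats were in only 5 and 13 of 32851 promoters. Their absence here therefore cannot show that these genes lack an LXR site. None held TCACNCCAC, a form of the sterol regulatory element, which was in 1.24% of all promoters. The variant half-site AGTTCA was in 14.0% of all promoters and in those of Abca1, Abcg5 and Abcg8. The promoters of Abcg5 and Abcg8 overlap and held the same copy, which starts 120 bases before the start of Abcg8. In the promoter of Abca1 the copy starts 125 bases before the start. These matches are descriptions of the letters in these windows.

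The estimated counts summed to between 20086004 and 22495449 per mouse. Normalised counts are given as CPM, which relate each count to the total of its library, after scaling by the TMM method, and the common biological coefficient of variation between mice was 0.192. A gene was called where edgeR's quasi-likelihood test gave an adjusted p under 0.05 and the absolute log2 fold change was above 1. Scaling factors ranged from 0.80 to 0.976 for Control libraries, from 1.09 to 1.23 for NASH and from 0.912 to 1.08 for NASH+Exercise. When libraries were scaled by size alone, the median over all genes of the log2 fold change moved from 0.01 to 0.36 in NASH against Control, from -0.03 to -0.23 in NASH+Exercise against NASH and from 0.003 to 0.15 in NASH+Exercise against Control. Directions of small changes are therefore given relative to the TMM scale.

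Of the 4 sterol exporters, Abcg1, Abcg5 and Abcg8 were raised in the livers of NASH mice compared with Control mice, and Abca1 fell just short of the fold threshold. Of the 10 genes, 5 were called higher (Abcg1, Soat1, Abcg5, Abcg8 and Mylip) and 0 lower, where 15.3% of all 13619 tested genes were called higher and 3.03% lower. By adjusted p alone 7 of the 10 passed, against 35.6% of all genes. DESeq2 called 4 higher and 0 lower, without Mylip, and Lpcat3 was the 1 gene lower at an unadjusted p under 0.05. The shares of all genes by these measures were not counted. The median log2 fold change of the 10 genes was 0.99, compared with 0.01 for all genes. Without NASH replicate 19, Control replicate 3 or Control replicate 4, 4 were called higher by edgeR. Without Control replicate 29 or NASH replicate 5, 6 were. In CPM after TMM, the 3 NASH mice were all above the 3 Control mice for 7 genes, against 27.4% of all genes. They were all below for 2, Nr1h3 and Lpcat3, against 22.2%. On TPM, which is per transcript length, neither was lower throughout. Nr1h3 was above Control there (91.9, 100 and 92.1 against 79.2, 86.3 and 86.9 TPM), as was Nr1h2 (51.0, 50.4 and 45.3 against 37.9, 40.5 and 44.1). Lpcat3 overlapped, and the shares of all genes on TPM were not counted.

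**Figure D1:**
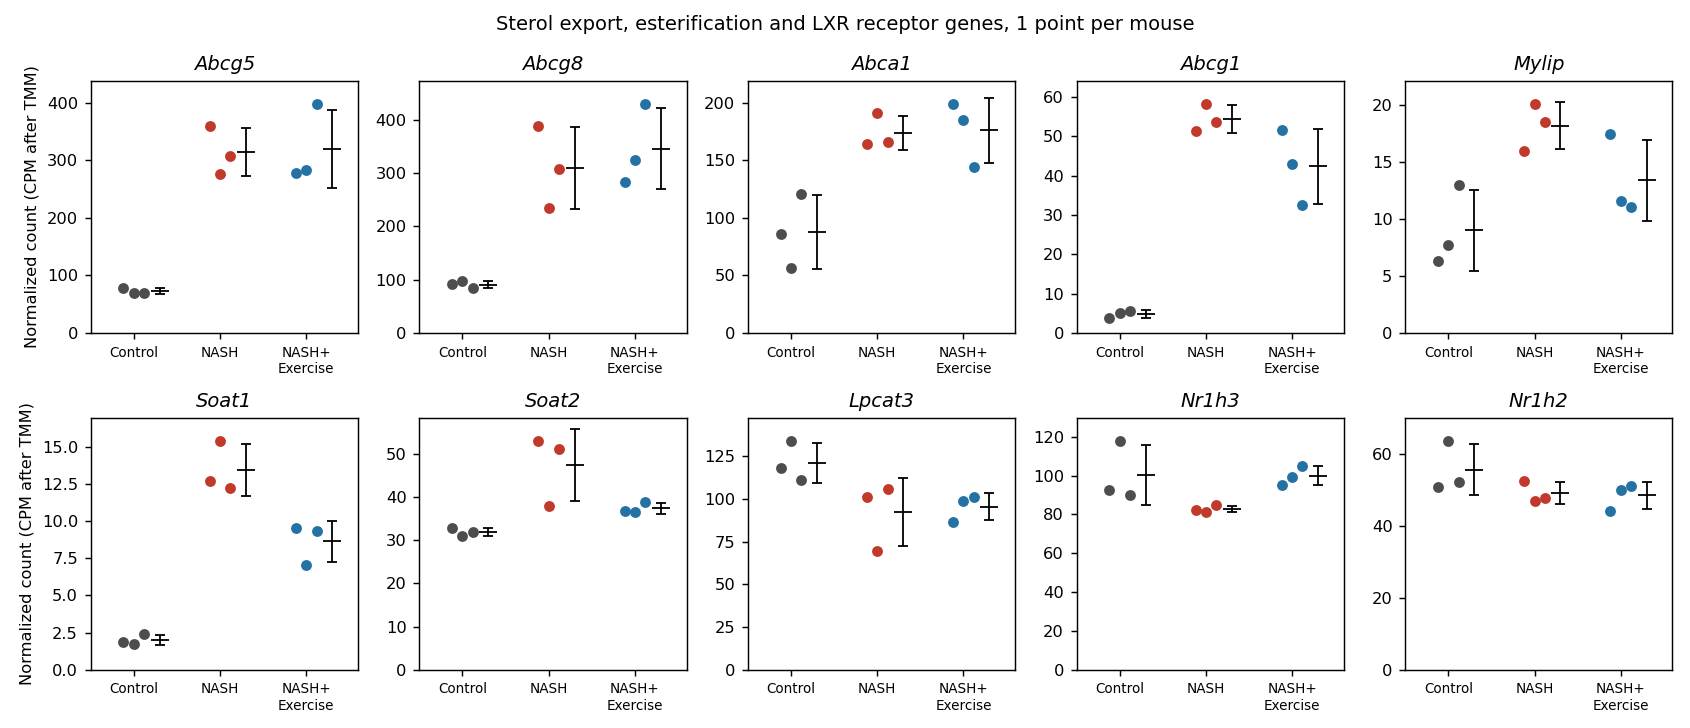
Normalised count (CPM after TMM, linear axis from 0) of each gene in each mouse. Each point is 1 mouse, and the bar beside each group is the mean with the SD (n = 3). Abcg5, Abcg8, Abcg1 and Soat1 lay far lower in the 3 Control mice than in either group on the Ath diet, whereas Nr1h2 spanned 44.2 to 63.7 CPM over all 9 mice.

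Of the biliary sterol transporter, Abcg5 was at 79.1, 69.2 and 69.5 CPM in the Control mice, 359, 277 and 307 in NASH and 278, 283 and 398 in NASH+Exercise. Abcg8 was at 91.7, 97.5 and 84.0 CPM in Control, 389, 234 and 307 in NASH and 283, 324 and 430 in NASH+Exercise. Both were thus low in every Control mouse, with no overlap with either other group, while the ranges of the 2 groups on the Ath diet overlapped. In NASH against Control, Abcg5 rose by a log2 fold change of 2.12 (SE 0.17, edgeR adjusted p = 1.434e-05). Abcg8 rose by 1.77 (SE 0.21, edgeR adjusted p = 0.0001242). By GENCODE M21, 82 of the 2712 exonic bases of Abcg5 are also exonic in Abcg8 on the opposite strand, and the use of strand in counting was not given in the sources used here, so reads from these bases are uncertain.

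Abcg1 (gene ID 11307, chr17:31057694-31117984), which exports sterol to HDL, had the largest log2 fold change of the 10 genes in NASH against Control. It was at 3.81, 5.12 and 5.56 CPM in Control, 51.2, 58.2 and 53.6 in NASH and 51.5, 42.9 and 32.6 in NASH+Exercise. The lowest mouse on the Ath diet was thus well above the highest Control mouse. Its log2 fold change in NASH was 3.49 (SE 0.20, edgeR adjusted p = 3.787e-06), or 11.2-fold.

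Abca1 (11303, chr4:53030789-53159988), the transporter that starts HDL, was at 86.2, 56.9 and 121 CPM in Control, 164, 191 and 166 in NASH and 199, 185 and 144 in NASH+Exercise. Every mouse on the Ath diet was above every Control mouse. The log2 fold change was 0.98 in NASH (SE 0.24, edgeR adjusted p = 0.009838) and 0.995 in NASH+Exercise against Control (SE 0.24, edgeR adjusted p = 0.01228), just under the fold threshold in both. Without Control replicate 29, the highest Control mouse, these became 1.25 and 1.28 and both were called. NASH was also called without NASH replicate 5 (1.01) or 20 (1.01), and the trained mice against Control without NASH+Exercise replicate 22 (1.121). Both comparisons also passed when libraries were scaled by size alone (1.30 and 1.12) and with limma on log2(TPM + 1) (1.39 and 1.11) or log2(TPM + 0.1) (1.46 and 1.17), and the trained mice against Control passed with edgeR on 6 mice (1.03). In each comparison, however, 13 of 20 alternatives left Abca1 uncalled. Leaving out 1 mouse gave values from 0.725 to 1.245 in NASH and from 0.777 to 1.281 in the trained mice against Control.

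Mylip (218203, chr13:45389742-45411940), which degrades the LDL receptor, was at 6.28, 7.73 and 13 CPM in Control, 16.0, 20.1 and 18.5 in NASH and 17.5, 11.6 and 11.1 in NASH+Exercise. The NASH mice lay above the Control mice, and the NASH+Exercise mice overlapped both. In NASH against Control, Mylip rose by a log2 fold change of 1.01 (SE 0.27, edgeR adjusted p = 0.01444). This call was lost without Control replicate 3 (0.80), Control replicate 4 (0.89), NASH replicate 19 (0.90) or NASH replicate 20 (0.996). It was also lost with DESeq2 on 9 or 6 mice (0.97 and 0.98), with RLE size factors (0.979), without a filter on low counts (0.98) and under glmTreat, which tests against the fold threshold itself (edgeR adjusted p = 1.0).

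**Figure D2:**
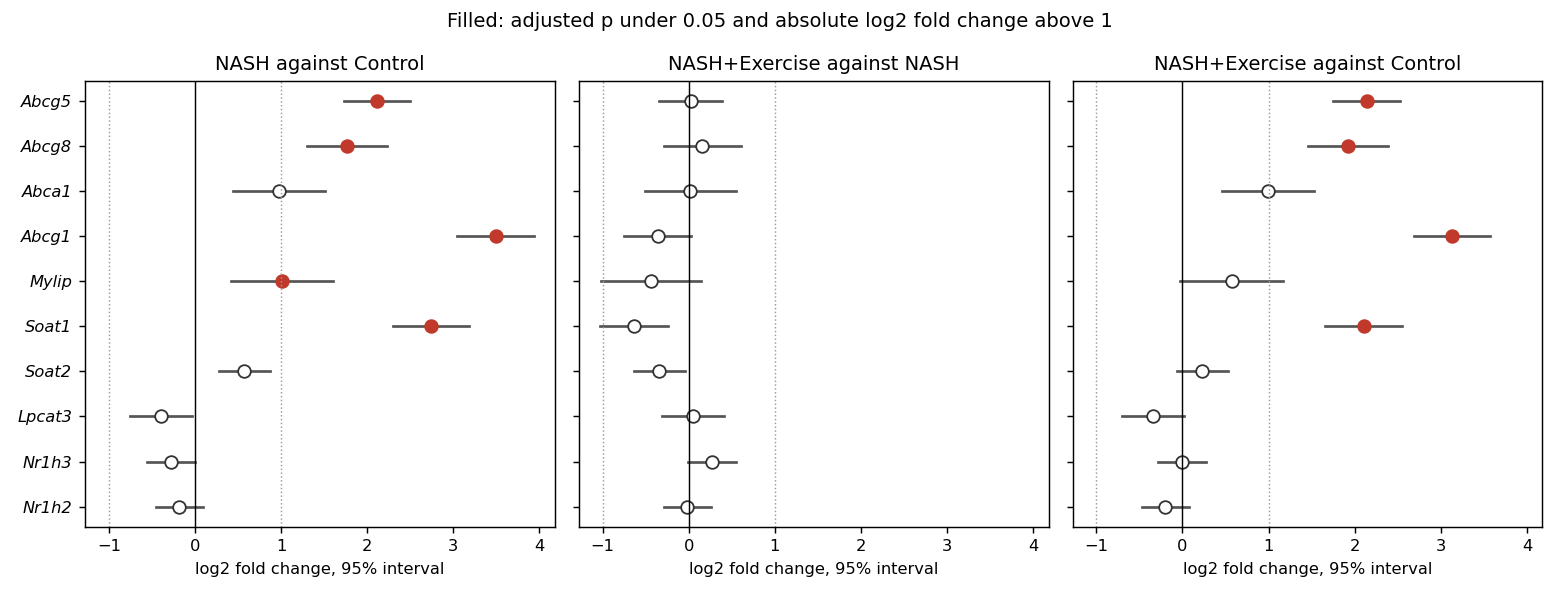
Log2 fold change (horizontal axis) of each gene with its 95% interval in the 3 comparisons, from edgeR on 9 mice. Filled points were called (adjusted p under 0.05 and absolute log2 fold change above 1, dotted lines): 5 genes in NASH against Control, 0 in NASH+Exercise against NASH and 4 in NASH+Exercise against Control.

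Of the enzymes that esterify sterol, Soat1 (20652, chr1:156428108-156474328) was called in NASH and Soat2 was not. Soat1 was at 1.88, 1.72 and 2.40 CPM in Control, 12.7, 15.4 and 12.2 in NASH and 9.56, 7.03 and 9.31 in NASH+Exercise. The 3 groups did not overlap, with the trained mice in between. Soat1 rose in NASH by a log2 fold change of 2.74 (SE 0.20, edgeR adjusted p = 7.982e-06).
Soat2 (223920, chr15:102150415-102163469) was at 32.7, 30.9 and 31.8 CPM in Control, 53.0, 37.8 and 51.1 in NASH and 36.7, 36.5 and 38.8 in NASH+Exercise. Each mouse on the Ath diet was above the Control mice, NASH replicate 19 being close to the trained mice. In NASH, Soat2 rose by 0.57 on the log2 scale (SE 0.13, edgeR adjusted p = 0.007586), below the fold threshold.

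Per transcript length, Soat2 was the more abundant enzyme in every mouse. The ratio of Soat1 to Soat2 in TPM was 0.0261, 0.0237 and 0.0334 in Control, 0.105, 0.178 and 0.104 in NASH and 0.114, 0.0836 and 0.104 in NASH+Exercise. The NASH mice were all above the Control mice, by 4.55-fold in the geometric mean (exact two-sided permutation test, p = 0.1, the smallest that 3 mice against 3 allow). NASH+Exercise and NASH overlapped (log2 difference -0.32, p = 0.5 by the same exact test), and the difference was -0.07 without NASH replicate 19 and -0.20 without NASH+Exercise replicate 18.

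Neither the receptors nor Lpcat3 passed the test in NASH. Nr1h3 (LXR alpha, 22259, chr2:91184061-91202829) was at 92.4, 118 and 90.1 CPM in Control, 82.4, 81.2 and 84.7 in NASH and 95.2, 99.4 and 105 in NASH+Exercise. The NASH mice were below all the others, by a log2 fold change of -0.28 against Control (95% interval -0.56 to 0.002, edgeR adjusted p = 0.1125). Nr1h2 (LXR beta, 22260, chr7:44549616-44553968) was at 50.8, 63.7 and 52.2 CPM in Control, 52.5, 46.8 and 47.8 in NASH and 44.2, 50.1 and 51.2 in NASH+Exercise. These groups overlapped, and the log2 fold change in NASH was -0.18 (95% interval -0.45 to 0.09, edgeR adjusted p = 0.2816).
Lpcat3 (14792, chr6:124663094-124704716) was at 118, 134 and 111 CPM in Control, 101, 69.3 and 106 in NASH and 86.2, 98.7 and 101 in NASH+Exercise. Every Control mouse was above the others, and NASH differed from Control by -0.39 on the log2 scale (95% interval -0.76 to -0.03, edgeR adjusted p = 0.08618). The directions of Nr1h3 and Nr1h2 in NASH turned under scaling by library size (0.09 and 0.18), and on TPM those of Nr1h3, Nr1h2 and Lpcat3 did (0.17, 0.25 and 0.05), each without passing the test. Of the 3268 exonic bases of Lpcat3, 334 are shared with Emg1 on the opposite strand, and 34 of 2515 of Nr1h3 with Gm13783 on the same strand.

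The balance of the receptors was measured as the ratio of Nr1h3 to Nr1h2 in TPM. It was 2.09, 2.13 and 1.97 in Control, 1.80, 1.99 and 2.03 in NASH and 2.46, 2.27 and 2.36 in NASH+Exercise. The trained mice were all above the NASH mice (log2 difference 0.28, exact two-sided permutation p = 0.1, the smallest possible), and NASH overlapped Control (-0.09, exact p = 0.3). For the transporter pair, the ratio of Abcg5 to Abcg8 in TPM was 1.27, 1.05 and 1.23 in Control, 1.38, 1.76 and 1.48 in NASH and 1.47, 1.30 and 1.38 in NASH+Exercise. The NASH mice lay above the Control mice (0.38, exact p = 0.1) and overlapped the trained mice (-0.15, exact p = 0.2). Without NASH replicate 19 the latter difference was -0.05, and without NASH replicate 5 that of Nr1h3 to Nr1h2 in NASH against Control was -0.035.

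Levels were compared between genes on the TPM scale, which is per transcript length. In Control livers, Lpcat3 (86.6 ± 3.51 TPM, SD, n = 3) and Nr1h3 (84.1 ± 4.29) were highest and overlapped. They were followed by Abcg5 (44.6 ± 7.0), Nr1h2 (40.9 ± 3.09) and Abcg8 (37.4 ± 2.42), each overlapping its neighbour. Soat2 (22.6 ± 3.32) overlapped Abca1 (13.1 ± 6.39), Abca1 overlapped Mylip (4.56 ± 2.36), and Abcg1 (1.22 ± 0.325) and Soat1 (0.637 ± 0.201) were lowest.
In NASH livers the order changed at the top, where Abcg5 (259 ± 26.8 TPM) and Abcg8 (170 ± 35.1) now stood above Nr1h3 (94.8 ± 4.77) and Lpcat3 (90.3 ± 14.5) with no overlap. Nr1h2 (48.9 ± 3.17), Soat2 (44.9 ± 5.35) and Abca1 (33.7 ± 5.30) formed a chain of overlapping neighbours. Abcg1 (18.5 ± 2.43), Mylip (12.1 ± 2.05) and Soat1 (5.64 ± 1.12) followed, each apart from the next.
In NASH+Exercise the order of the means was the same, from Abcg5 (212 ± 26.3 TPM) and Abcg8 (153 ± 17.0) to Soat1 (2.94 ± 0.653). There, only Soat2 with Abca1 and Abcg1 with Mylip overlapped among neighbours.

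**Figure D3:**
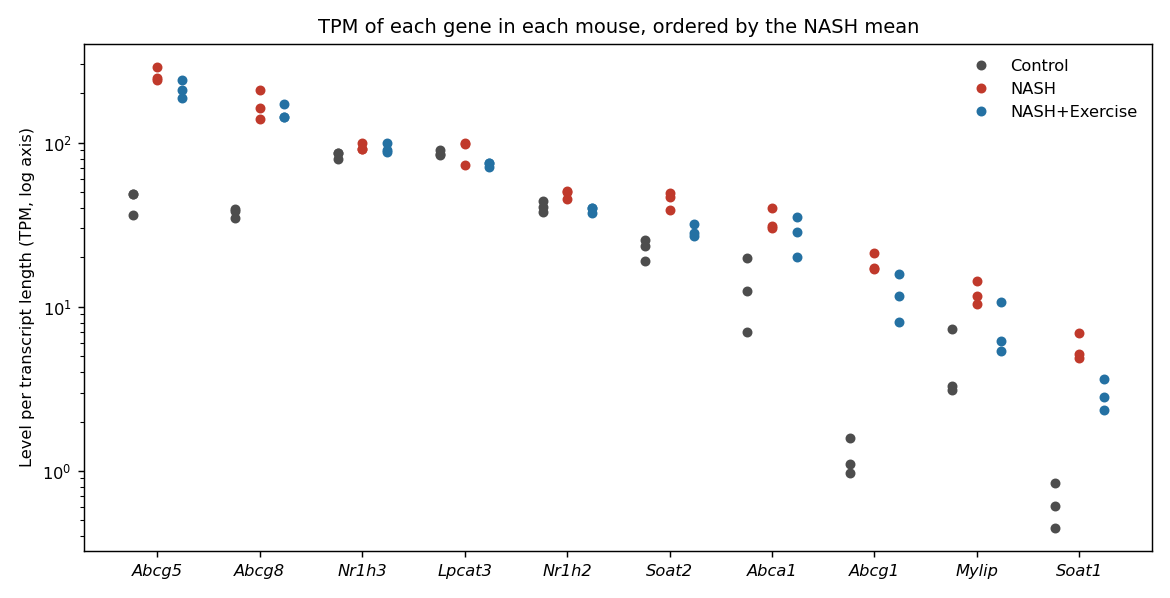
TPM (log axis) of each gene in each mouse, with 3 points per group, ordered by the NASH mean. Abcg5 and Abcg8 moved from 44.6 and 37.4 TPM in Control to the top of the order in both groups on the Ath diet, and Soat1 was lowest in every group.

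Few genes of any kind passed the threshold between trained and sedentary mice on the Ath diet, and none of the 10 did. Between NASH+Exercise and NASH, 0 of the 10 were called by edgeR or by DESeq2. By edgeR, 0.103% of all genes were called higher and 0.0367% lower, so 0 of 10 does not set these genes apart. The DESeq2 share of all genes was not counted. At an unadjusted p under 0.05 there were 2 of the 10, Soat1 and Soat2, both lower, against 15.3% of all genes. In CPM after TMM, the groups did not overlap for Soat1 (lower) and Nr1h3 (higher). This held for 14.9% of all genes in the lower and 9.16% in the higher direction. On TPM, Nr1h3 overlapped, while Soat1, Soat2, Nr1h2, Abcg1 and Abcg5 were apart and lower. For Abcg5 the gap was narrow (highest trained mouse 239.53 TPM, lowest NASH mouse 239.99). The shares of all genes on TPM were not counted. The median of the 10 log2 fold changes was 0.001, that of all genes -0.03. This comparison shares the NASH mice with the one of NASH against Control.

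Soat1 had the lowest p of the 10 in this comparison. Its mean was 8.63 ± 1.39 CPM (SD, n = 3) in the trained mice and 13.4 ± 1.72 in NASH, a log2 fold change of -0.63 (95% interval -1.03 to -0.24, unadjusted p = 0.004722, edgeR adjusted p = 0.1598). Soat2 had 37.3 ± 1.25 and 47.3 ± 8.30 CPM, a log2 fold change of -0.34 (95% interval -0.64 to -0.05, edgeR adjusted p = 0.2698). Nr1h3 had 99.9 ± 5.02 and 82.7 ± 1.77 CPM, a log2 fold change of 0.27 (95% interval -0.01 to 0.55, edgeR adjusted p = 0.3375), and this became -0.04 on TPM.

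For the other genes, the intervals of the difference between trained and sedentary mice on the diet all spanned 0. The log2 fold change was 0.02 for Abcg5 (95% interval -0.35 to 0.39), 0.16 for Abcg8 (-0.29 to 0.61) and 0.02 for Abca1 (-0.51 to 0.54). Abcg1 was at -0.36 (-0.75 to 0.03) and Mylip at -0.44 (-1.02 to 0.14). For Nr1h2 and Lpcat3 the values were -0.02 (-0.29 to 0.26) and 0.05 (-0.31 to 0.41). The adjusted p of these 7 genes by edgeR ranged from 0.3549 to 0.9788. The signs of Abca1, Abcg5, Abcg8 and Lpcat3 turned to negative values when the libraries were scaled by size alone.

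Trained mice on the Ath diet still differed from Control mice. Compared with Control, 4 of the 10 genes were called higher and 0 lower, against 10.4% and 3.07% of all genes. DESeq2 gave the same counts, and none of the 10 was lower at an unadjusted p under 0.05, the shares of all genes by these measures not being counted. By adjusted p alone 5 of the 10 passed, against 25.1% of all genes. Abcg1 rose by a log2 fold change of 3.13, Abcg5 by 2.14, Soat1 by 2.104 and Abcg8 by 1.92, with edgeR adjusted p from 9.799e-06 to 0.0001274. Mylip was at 0.57 (SE 0.27, edgeR adjusted p = 0.1537) and did not pass. Soat2 was at 0.23 (edgeR adjusted p = 0.2505) and Lpcat3 at -0.34 (edgeR adjusted p = 0.1595), both with groups that did not overlap. In all, the groups were apart in CPM after TMM for 6 genes higher and 1 lower, against 21.5% and 17.0% of all genes. On TPM, Nr1h3 was also apart and higher (87.6 to 99.1 against 79.2 to 86.9). The 4 calls share the Control mice with those of NASH against Control.

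Markers of several cell types differed between the groups. In bulk liver, fewer cells of a type and less RNA per cell cannot be told apart. Of 8 macrophage markers, 8 were called higher in NASH than in Control, against 15.3% of all genes. Their sum ranged from 60.0 to 112 CPM for Control mice, from 859 to 1010 for NASH and from 650 to 709 for trained mice. None was at 0 in any group. In the trained mice 8 of 8 had lower means than in NASH, 5 without overlap, against 14.9% of all genes. None was called by edgeR or DESeq2, and 3 had an unadjusted p under 0.05, against 15.3% of all genes in either direction. Summed Kupffer cell markers reached 63.3 to 114 CPM, 358 to 625 CPM and 421 to 503 CPM in the same order of groups. Of these markers, 4 of 5 were called higher in NASH against Control, where 15.3% of all genes were.

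**Figure D4:**
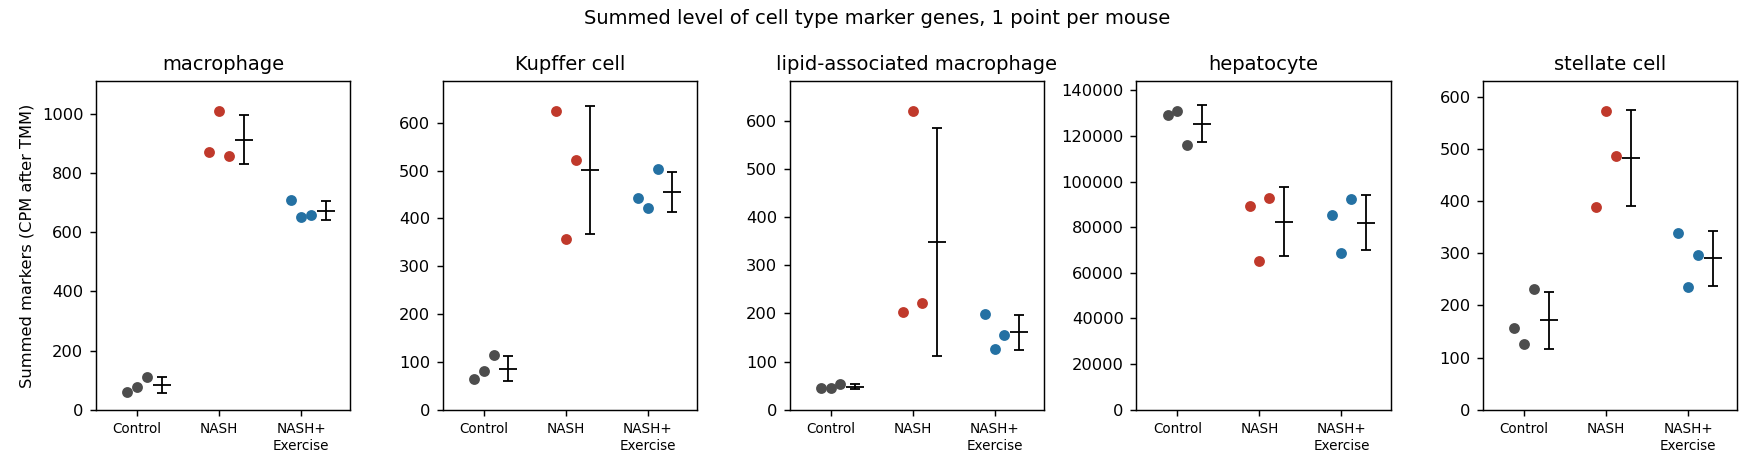
Summed level (CPM after TMM, linear axis from 0) of the marker genes of 5 cell types in each mouse, with the mean and SD (n = 3) beside the points. Macrophage markers stood at 60.0 to 112 CPM in Control and at 650 CPM or more in every mouse on the Ath diet, and hepatocyte markers were lower in both groups on the diet.

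Markers of lipid-associated macrophages summed to 44.3 to 54.0 CPM (Control), 202 to 620 CPM (NASH) and 127 to 199 CPM (NASH+Exercise), with NASH replicate 19 at 620. Hepatocyte markers were abundant in every library, as the label liver implies. Their sum ranged from 116000 to 131000 CPM for Control mice, from 65100 to 92900 for NASH and from 68500 to 92200 for trained mice. All 7 hepatocyte markers were lower in each NASH mouse than in each Control mouse, against 22.2% of all genes. Of them, 1 (Cyp2e1) was called lower, against 3.03% of all genes. Stellate cell markers summed to 126 to 231, 388 to 573 and 235 to 339 CPM in the same order. Of these, 4 of 8 were called higher in NASH, against 15.3% of all genes. Macrophage markers, Abcg1 and Soat1 were thus all higher in each mouse on the Ath diet than in each Control mouse. The same held for Abcg5, Abcg8, Abca1 and Soat2. The part of macrophages and of the other cell types in the rise of the sterol genes was not tested. NASH replicate 19 also had the lowest value of the 9 mice for Lpcat3 and the lowest hepatocyte sum.

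Genes with the most similar pattern over the 9 mice were found by the root mean square difference of mean-centred log2 CPM among 12248 genes. Abcg8 was the nearest gene to Abcg5 (0.19), and Abcg5 was second to Abcg8 (0.19) after Dok2 (0.19). For Abcg1 the nearest were Myo1f (0.16) and Fcer1g (0.17), and for Soat1 Abr (0.11) and Irf8 (0.15). Abca1 was nearest to Armcx3 and Ripk2, Mylip to Eps8 and Ddr2, and Soat2 to Coro1c and Cemip2. Flot2 and R3hdm4 were nearest for Nr1h2 and Pi4k2a and Upf1 for Nr1h3, and Lpcat3 was nearest to 2310009B15Rik and Tmem11.

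Of 82 other genes of sterol metabolism and LXR signalling, in 7 lists, 78 could be tested. In NASH against Control 15 were called higher and 4 lower, against 15.3% and 3.03% of all genes, with a median log2 fold change of -0.03 compared with 0.01 for all genes. Among 13 other LXR target genes, 4 were called higher, where 15.3% of all genes were. Lpl, which releases fatty acids from lipoproteins, rose by a log2 fold change of 4.41 (SE 0.43, edgeR adjusted p = 6.811e-05), from 11.9 ± 5.13 to 252 ± 106 CPM. Arl4c, a small GTPase, rose by 2.54 (SE 0.24, edgeR adjusted p = 3.31e-05). Srebf1, the regulator of fatty acid synthesis, rose by 1.93 (SE 0.19, edgeR adjusted p = 3.407e-05), and Scd1, a fatty acid desaturase, was the fourth gene called.

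Oxysterols are the ligands of LXR, and of 6 tested enzymes that make or remove them or desmosterol, 1 was called higher and 2 lower in NASH, against 15.3% and 3.03% of all genes. Ch25h, which makes 25-hydroxycholesterol, had 0 counts in all 3 Control mice, 11, 13 and 7 counts in NASH and 9, 6 and 15 in NASH+Exercise. With a floor of 3 counts over the Control group, the lower bound of its rise was 7.92-fold in NASH and 8.70-fold in NASH+Exercise. The floor covers the counting error of the Control group only. It leaves out that of the other groups and the spread between mice. Cyp7b1, which removes oxysterols on the way to bile acids, was at 187, 276 and 196 CPM in Control, 40.1, 52.2 and 62.6 in NASH and 137, 193 and 316 in NASH+Exercise. The NASH mice were below all the others. Cyp7b1 fell in NASH by 2.09 on the log2 scale (SE 0.31, edgeR adjusted p = 0.0005715). Cyp46a1, the cholesterol 24-hydroxylase, fell by 1.72 (SE 0.33, edgeR adjusted p = 0.002538).

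Cyp7b1 was the 1 of the 78 genes called in NASH+Exercise against NASH. It rose by 2.06 (SE 0.31, edgeR adjusted p = 0.04046), next to the 0.103% of all genes called higher. This call was made in 10 of 20 alternatives and was lost in 8 of the 9 fits that left out a mouse, every one but that without NASH+Exercise replicate 8 (2.31). In the 8 fits that lost it, the log2 fold change stayed between 1.68 and 2.23, with edgeR adjusted p from 0.05867 to 0.1552. DESeq2 called Cyp7b1 and, lower, Abcb1a. Srebf1 was at 0.81 in this comparison (SE 0.18, edgeR adjusted p = 0.1218), with 208 ± 6.05 CPM in NASH and 364 ± 89.9 in NASH+Exercise. Stard4, which carries cholesterol within cells, was at 0.72 (SE 0.25, edgeR adjusted p = 0.2273). Abcb1a, a multidrug exporter, was at -1.12 (SE 0.26, edgeR adjusted p = 0.1219), and Lpcat4 at -0.94 (SE 0.24, edgeR adjusted p = 0.1367).

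**Figure D5:**
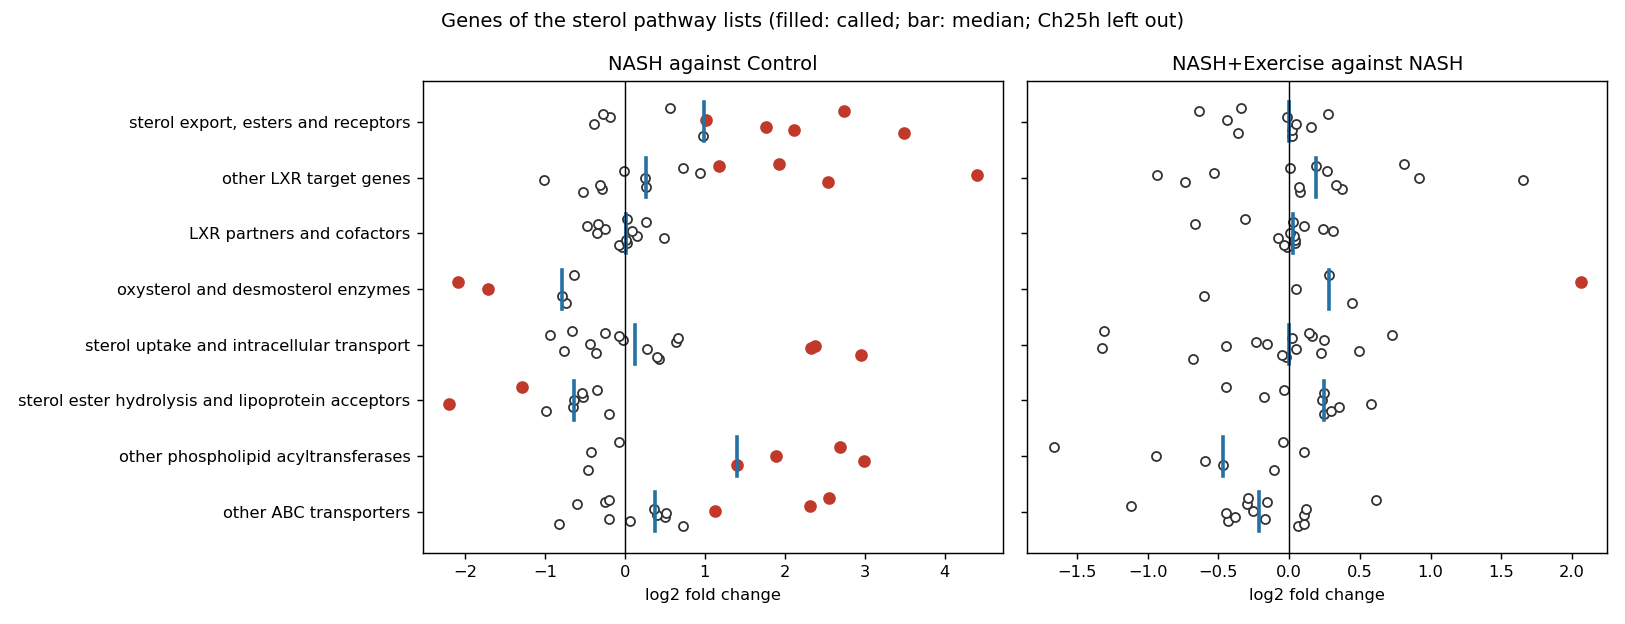
Log2 fold change (horizontal axis) of each tested gene in 8 lists, for NASH against Control and NASH+Exercise against NASH, with Ch25h left out since its Control counts were 0. Each point is a gene, filled points were called, and the vertical bars are medians of the plotted genes. In the right panel the single filled point is Cyp7b1 at 2.06.

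Of 13 partners of LXR (retinoid X receptors, coactivators and corepressors), 0 were called in NASH against Control by edgeR or DESeq2. By edgeR, 15.3% of all genes were called higher and 3.03% lower. Of the 13 partners, 3 had an unadjusted p under 0.05, a measure whose share of all genes was not counted. An adjusted p under 0.05 was found for 2 of them, against 35.6% of all genes. The lowest p was that of the coactivator Ncoa3, with a log2 fold change of 0.50 (SE 0.14, edgeR adjusted p = 0.01696). Rxrg fell in NASH+Exercise against Control by 1.01 on the log2 scale (SE 0.17, edgeR adjusted p = 0.001438) and was at -0.66 against NASH (edgeR adjusted p = 0.1362).

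Among 16 genes of sterol uptake and transport, 3 were called higher in NASH, a share near the 15.3% of all genes. Gramd1b, which moves cholesterol from the plasma membrane to the endoplasmic reticulum, rose by 2.95 on the log2 scale (SE 0.24, edgeR adjusted p = 1.169e-05) and by 2.90 in NASH+Exercise against Control. The scavenger receptor Msr1 rose by 2.38 (SE 0.52, edgeR adjusted p = 0.006634) in NASH. The lipoprotein receptor Lrp8 had 23, 11 and 20 counts in NASH and 4, 3 and 1 in Control, a ratio of 5.17 (exact 95% interval 2.45 to 12.6, counting error only). Another lipoprotein receptor, Vldlr, fell in NASH+Exercise against Control by 1.97 on the log2 scale (SE 0.46, edgeR adjusted p = 0.009929).

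All 9 genes for the hydrolysis of sterol esters and for HDL acceptors had negative values in NASH on the TMM scale. The share of all genes with negative values was not counted. The smallest change, -0.20 for Apoa1 (edgeR adjusted p = 0.5424), was less than the shift of all genes under library size given above. Of the 9 genes, 2 were called lower, against 3.03% of all genes. Ces1d, a carboxylesterase, fell from 877 ± 342 to 192 ± 64.5 CPM, a log2 fold change of -2.195 (SE 0.40, edgeR adjusted p = 0.002361). Nceh1, the neutral cholesteryl ester hydrolase, fell by 1.29 on the log2 scale (SE 0.13, edgeR adjusted p = 4.292e-05), from 70.6 ± 10.4 to 28.8 ± 2.18 CPM, in the opposite direction to Soat1. In NASH+Exercise it was at 21.1 ± 1.29 CPM, a log2 fold change of -1.74 against Control (edgeR adjusted p = 1.729e-05) and of -0.45 against NASH (edgeR adjusted p = 0.1684).

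Of the other phospholipid acyltransferases, 4 of 7 were called higher in NASH, against 15.3% of all genes. Lpcat2 rose by 2.99 on the log2 scale (SE 0.29, edgeR adjusted p = 3.559e-05), from 1.31 ± 0.594 to 10.5 ± 1.31 CPM, and Lpcat4 by 1.89 (SE 0.26, edgeR adjusted p = 0.0003324). Mboat1 had 12, 48 and 11 counts in NASH and 2, 3 and 3 in Control, a ratio of 6.80 (exact 95% interval 3.27 to 16.4, counting error only). Of 14 other ABC transporters, 3 were called higher in NASH, near the 15.3% of all genes, namely Abcg3 (2.55, edgeR adjusted p = 0.0001115), Abcb1a (2.32, edgeR adjusted p = 0.0001271) and Abca9 (1.13, edgeR adjusted p = 0.001032). In NASH+Exercise against Control, 11 of the 78 genes were called higher and 6 lower, against 10.4% and 3.07% of all genes, among them Cyp3a11, a drug and sterol hydroxylase, which fell by 1.38 on the log2 scale (SE 0.27, edgeR adjusted p = 0.003504).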

How the data were processed

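Liver mRNA of 9 mice was sequenced with 1 library per mouse. Per the labels, the submitters' processing notes name HISAT2 2.1.0, Bowtie2 2.2.5, RSEM 1.2.8 and GRCm38.p6, with no roles given. The authors deposited estimated counts per gene without normalization (29.0% to 32.8% of them not whole), which were rounded here. They also deposited TPM values, which scale by transcript length and library, and FPKM values, used here only as an alternative for ratios. One file repeats the values of all mice, and 0 of 428304 shared values differed. RefSeq gave symbols for 17728 of 17846 gene IDs, positions and promoters (GRCm38.p6), and GENCODE M21 gave exon overlaps.

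Genes were filtered with filterByExpr by group (minimum count 10, total 15), scaled by TMM and fitted with the robust quasi-likelihood test of edgeR 4.0.16 in R 4.3.3 on all 9 mice (6 residual degrees of freedom), with Benjamini-Hochberg adjustment over 13619 genes. The study's methods used DESeq2, run here (1.42.0) as an alternative, beside limma 3.58.1 on log2(TPM + 1) and log2(TPM + 0.1), RLE size factors, library size alone, no filter, glmTreat, fits of 6 mice and leaving out each mouse. Scripts were tested on simulated data. Ratios were tested by exact two-sided permutation (scipy 1.17.1). Depth was about even between mice, so their spread and number limit precision. The named genes were all 10 genes, up to 3 called genes with the largest change per list and comparison (or the 1 with the smallest p where none was called), the 2 nearest genes in pattern, and the markers. The genes and lists were chosen with earlier results of these data known.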

Additional observations from a re-analysis of the deposited data

How the results depend on the processing

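No paired analysis was possible because the replicate numbers differ between the groups. The counts of the 10 genes called stayed within 1.5 times under every alternative in each comparison, and the 6 ratios kept their direction, with 3 of the differences moving by more than 1.5 times when 1 mouse was left out, as given above. Of the 82 listed genes, the count called in NASH against Control was 19, with 12 under glmTreat and 43 by adjusted p alone. In NASH+Exercise against Control it was 17, with 8 and 32. In NASH+Exercise against NASH it was 1, with 0 under glmTreat and with edgeR on 6 mice, 2 with DESeq2 on 9 or 6 mice, and 0 to 1 when each mouse was left out. Abca1 and Mylip, both near the fold threshold, passed or missed it as given above. Intervals at 3 mice per group limit what could be detected.

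Signs turned only for values that did not pass the test. Scaling by library size alone, limma on log2(TPM + 1) and limma on log2(TPM + 0.1) gave, in this order, the following log2 fold changes. In NASH against Control they were 0.176, 0.254 and 0.259 for Nr1h2, 0.085, 0.170 and 0.172 for Nr1h3, and for Lpcat3, on TPM alone, 0.048 and 0.049. In NASH+Exercise against NASH they were -0.178, -0.281 and -0.291 for Abca1, -0.187, -0.289 and -0.290 for Abcg5, -0.050, -0.138 and -0.138 for Abcg8, -0.145, -0.278 and -0.281 for Lpcat3, and for Nr1h3, on TPM alone, -0.035 and -0.035. In NASH+Exercise against Control, Nr1h3 was at 0.152, 0.135 and 0.137, and at 0.033 with edgeR on 6 mice. The shift of all genes under library size, given above, has the same sign as these turns. Nr1h2 in NASH+Exercise against NASH was at 0.005 without a filter, 0.001 and 0.033 with DESeq2 on 9 and 6 mice and 0.017 with edgeR on 6 mice. Over the 9 fits that each left out 1 mouse, the values in NASH+Exercise against NASH ranged from -0.077 to 0.147 for Abca1, -0.162 to 0.132 for Abcg5, -0.029 to 0.355 for Abcg8, -0.054 to 0.051 for Nr1h2 and -0.097 to 0.164 for Lpcat3, and those of Nr1h3 in NASH+Exercise against Control from -0.100 to 0.152.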

Other observations

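Markers of further cell types, summed in CPM after TMM, were measured beside the sterol genes. The share of all genes called higher by edgeR in NASH against Control, 15.3%, applies to each count of genes called higher in NASH below. Neutrophil markers reached 11.3 to 15.9 CPM in Control mice, 43.7 to 48.8 in NASH mice and 32.0 to 39.8 in trained mice, with 4 of 6 called higher in NASH. T and NK cell markers reached 2.09 to 3.32, 11.6 to 14.6 and 6.47 to 9.69 CPM, and 4 of 4 were called higher in NASH. Cholangiocyte markers reached 14.1 to 23.1, 20.2 to 53.5 and 17.7 to 38.2 CPM, with 2 of 4 called higher in NASH (Krt19 and Epcam). Of 6 sinusoidal endothelial markers, 1 (Lyve1) was called higher in NASH, and the sums of 78.7 to 145, 113 to 177 and 115 to 143 CPM overlapped. No B cell marker was called by edgeR or DESeq2 in any comparison. In NASH against Control, 1 of 4 had an unadjusted p under 0.05, higher, and the share of all genes by this measure was not counted. Of the enterocyte markers, genes of the gut where Abcg5 and Abcg8 are also known, 1 could be tested, and it was not called.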
